A study of Tupaia belangeri with 6 samples.

Results

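The genes described here are 9 genes that are read as marks of reactive astrocytes, GFAP, VIM, CHI3L1, EFEMP1, CD44, SERPINA3, S100B, STAT3 and SOX9, in the hippocampus of tree shrews (TSs, Tupaia belangeri). They were taken by symbol from the annotation, in which all 9 were found among 83605 features. All TSs were naturally aged. The study compared those with Alzheimer's-like pathology (ALP, titled AD in the labels) with controls of matching age (titled Normal), which it told apart by their performance in a maze. Hippocampus of 3 ALP and 3 control TSs gave 3 libraries of nuclei in each group, made with the 10× Genomics 3′ chemistry. The labels name no agent or allele for either group, and give neither age nor sex for a library.

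When nervous tissue is injured or diseased, astrocytes change shape and expression, a state called reactive. They thicken their intermediate filaments, built from GFAP and VIM, secrete proteins that act on the matrix and on immune cells, and take up signals of the interleukin-6 family, which reach the nucleus through STAT3. In the hippocampus GFAP also marks resting astrocytes and radial-glia-like progenitors, so that its level alone does not define the state.

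Levels rest on unique molecular identifiers (UMIs), tags that let each captured RNA molecule be counted once. The study's filters (200 to 2500 genes and under 5% mitochondrial UMIs, here counted on MT-ND1 features only) kept 28233 nuclei of 37603 barcodes. Of these 14387 were from control and 13846 from ALP TSs, with 4159545 to 15412799 UMIs per library. Control 2 stood apart: it gave 1614 kept nuclei, the fewest of the 6 libraries, and lost 46.4% of its barcodes to the upper limit on genes. Clusters were built without the 9 genes and named from other markers, which gave 3226 Astro-like and 170 Ependymal-like nuclei, 496 Endo-like and 104 Mural-like nuclei, 1612 Micro-like (microglia), 2719 OPC-like (oligodendrocyte precursors) and 8435 Oligo-like nuclei, and 2321 Gran-like (granule neurons), 2772 ExN-like (other excitatory neurons) and 2441 InN-like (inhibitory neurons) nuclei. The Endo-like cluster also carried mural markers, with RGS5 among its leading genes. The Mural-like cluster was led by SLC6A20, TBX18 and COL3A1, with no gene of the mural marker list used here among its leading genes. Its marker list held matrix genes (DCN, COL1A1, COL1A2, LUM) beside those of mural cells, so the name does not tell mural cells from vascular fibroblasts. The Astro-like nuclei carried 11 of their 12 markers, and their own marker list summed to between 7120 and 8332 UMIs per 1e+06 UMIs of the class in a library (CPM) in every library. Y-linked transcripts were present in control 1, control 2 and ALP 2 (65.5 to 82.9 CPM) and low in the other libraries (at most 0.799 CPM), so that the groups differed in how many libraries had them.

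Across cell classes, GFAP, EFEMP1, CHI3L1 and SOX9 had their highest mean CPM in Astro-like and Ependymal-like nuclei. The mean CPM of VIM was higher in Ependymal-like and Endo-like nuclei than in Astro-like ones. GFAP, the main filament protein of astrocytes, had 445 CPM in Astro-like nuclei (SD 98.1, 6 libraries), 294 in Ependymal-like, 128 in Endo-like and at most 32.4 CPM as a mean in every other class. Astro-like nuclei held 82.0% of the GFAP UMIs of the named classes. The libraries overlapped between the Astro-like and Ependymal-like classes, and Astro-like nuclei had the higher value in 5 of 6 libraries. Lowest was ExN-like with 3.86 CPM.

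**Figure D1:**
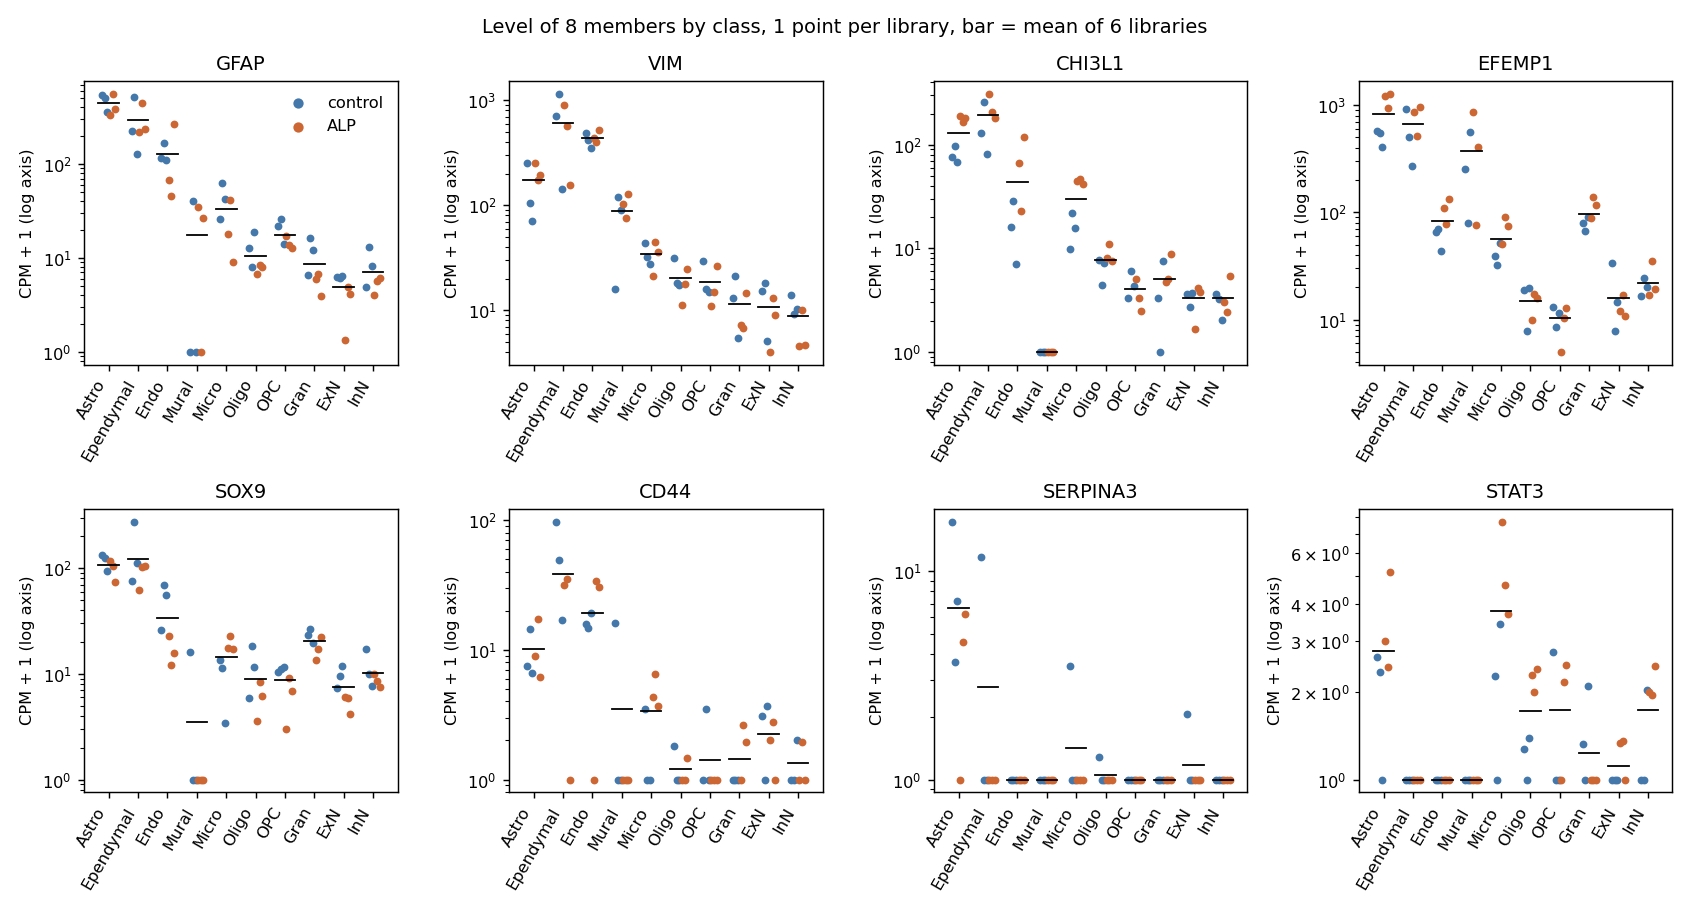
Level of 8 of the genes in the 10 named classes, as CPM plus 1 on a log axis, with 1 point per library (blue control, orange ALP) and a bar at the mean of 6 libraries; S100B had no UMI. GFAP and EFEMP1 have their highest mean in Astro-like nuclei (445 and 828 CPM), while VIM is highest in Ependymal-like nuclei (602 CPM).

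VIM, the filament protein of mesenchymal cells, endothelium and immature or reactive glia, reached 602 CPM in Ependymal-like and 434 CPM in Endo-like nuclei, against 174.5 CPM in Astro-like nuclei. The Endo-like libraries (354 to 518 CPM) all lay above the Astro-like ones (70.4 to 254 CPM). Ependymal-like nuclei varied from 143 to 1149 CPM and were not separated from the Endo-like ones. Astro-like nuclei were nonetheless the largest single source, with 44.5% of the VIM UMIs of the named classes.

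CHI3L1, a secreted chitinase-like glycoprotein measured in cerebrospinal fluid as a mark of glial activation, was highest in Ependymal-like nuclei (193.5 CPM) and next in Astro-like nuclei (129 CPM, SD 55.6). Ependymal-like nuclei were higher in 6 of 6 libraries, although the ranges overlapped. Endo-like nuclei had 42.5 and Micro-like nuclei 29.1 CPM, and the means of the remaining classes were at or below 6.65 CPM, with no UMI in Mural-like nuclei.

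EFEMP1, a fibulin of the extracellular matrix, gave the most UMIs of the 9 genes in Astro-like nuclei, with no adjustment for length, at 828 CPM (SD 372.5) and a UMI in 66.1% of the nuclei. Ependymal-like nuclei had 671 CPM and Mural-like nuclei, not told apart from vascular fibroblasts, 374 CPM. Among neurons it was uneven: Gran-like nuclei, the granule neurons of the dentate gyrus, had 96.25 CPM and held 10.3% of its UMIs, while ExN-like nuclei had 15.01 and InN-like nuclei 21.05 CPM. Gran-like libraries (66.2 to 138.5 CPM) all lay above the ExN-like ones (6.90 to 32.6 CPM).

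SOX9, a transcription factor of glial and progenitor cells, had 121.5 CPM in Ependymal-like and 107 CPM in Astro-like nuclei, an order that held in 3 of 6 libraries. All Astro-like libraries (73.1 to 131 CPM) lay above all Endo-like ones (11.04 to 68.95 CPM), the next class. Gran-like nuclei followed with 19.4 CPM. The annotation also lists 16 features named after SOX9, which together carried 512 UMIs in Astro-like nuclei beside 678 UMIs of SOX9 itself.

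The remaining members were sparse. CD44, the cell-surface receptor for hyaluronan, had 136 UMIs in all kept nuclei, with means of 37.7 CPM in Ependymal-like, 18.3 in Endo-like and 9.19 in Astro-like nuclei. SERPINA3, a secreted inhibitor of serine proteases, had 58 UMIs in all, and Astro-like nuclei held 42 of them, 87.5% of the UMIs in the named classes. SERPINA3 belongs to a family with close copies, and whether the counting split their reads was not tested. The 7 other features named after SERPINA3 had 0 UMIs in Astro-like nuclei and 8 in all kept nuclei. STAT3, the transcription factor activated by JAK kinases, had 44 UMIs in all kept nuclei, with means of 2.80 CPM in Micro-like and 1.76 CPM in Astro-like nuclei, while 4 other features named after STAT3 had 114. No UMI of S100B, a calcium-binding protein of astrocytes, was found in any barcode of any library. In Astro-like nuclei this was 0 of 3226, which allows a share of nuclei with a UMI of up to 0.0930%, for counting error only, while the 2 other features named after S100B had 77 UMIs in kept nuclei. The 3′ chemistry reads the 3′ end of a transcript, and whether the annotated S100B covers its own was not tested, so that this 0 is not a measure of its expression.

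Of the genes with a plain symbol and at least 200 UMIs (9614 genes), the pattern over the 10 classes most like that of GFAP was that of PRDM16 (Pearson r = 0.978), CD38 (0.974) and CLU (0.970). For VIM it was HSPD1 (0.982), PCBD2 (0.959) and PEX13 (0.959). For CHI3L1 it was RNF139 (0.956), SYTL3 (0.950) and TYSND1 (0.944), and for EFEMP1 it was GLI3 (0.970), PIGA (0.936) and CCDC80 (0.935). For SOX9 it was CFAP74 (0.963), TTLL8 (0.942) and RNF139 (0.941). These are descriptions over 10 class means that share libraries and depth, and were not tested.

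The comparison of ALP with control TSs asks whether reactive genes were raised in the astrocytes of the ALP TSs. In Astro-like nuclei CHI3L1 and EFEMP1 were higher in ALP TSs, each by about 1.3 on the log2 scale, while GFAP and SOX9 differed by less than the spread between libraries. In total 2 of the 5 members with enough UMIs were called, both higher (edgeR adjusted p below 0.05 over all genes tested and a log2 fold change beyond 0.25). Of all 10143 features tested in these nuclei, 0.207% were called, and 0.0986% were called higher. The median log2 fold change was 0.68 over the 5 members, the value of VIM, which was not called, and -0.01 over all features tested. The members were chosen with earlier results of these data known, so these counts and medians are not independent of the data.

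EFEMP1 had 537, 566 and 413 CPM in control 1, 2 and 3 and 1371, 967 and 1448 CPM in ALP 1, 2 and 3. The groups did not overlap, and the lowest ALP value, ALP 2, was well above the highest control value. The group means were 505 ± 81.5 for control and 1262 ± 259 for ALP TSs (CPM, SD, n = 3 each), from 1763 and 3149 UMIs. The log2 fold change was 1.32 (standard error 0.19, edgeR adjusted p = 0.0320).

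CHI3L1 had 71.2, 98.5 and 67.6 CPM in the control and 211.5, 169 and 206 CPM in the ALP libraries. Again every ALP library was above every control library, and ALP 2 was the lowest of its group. The means were 79.1 ± 16.9 and 195 ± 22.9 CPM (SD, n = 3 each), from 271 and 498 UMIs. The log2 fold change was 1.32 (standard error 0.20, edgeR adjusted p = 0.0320).

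**Figure D2:**
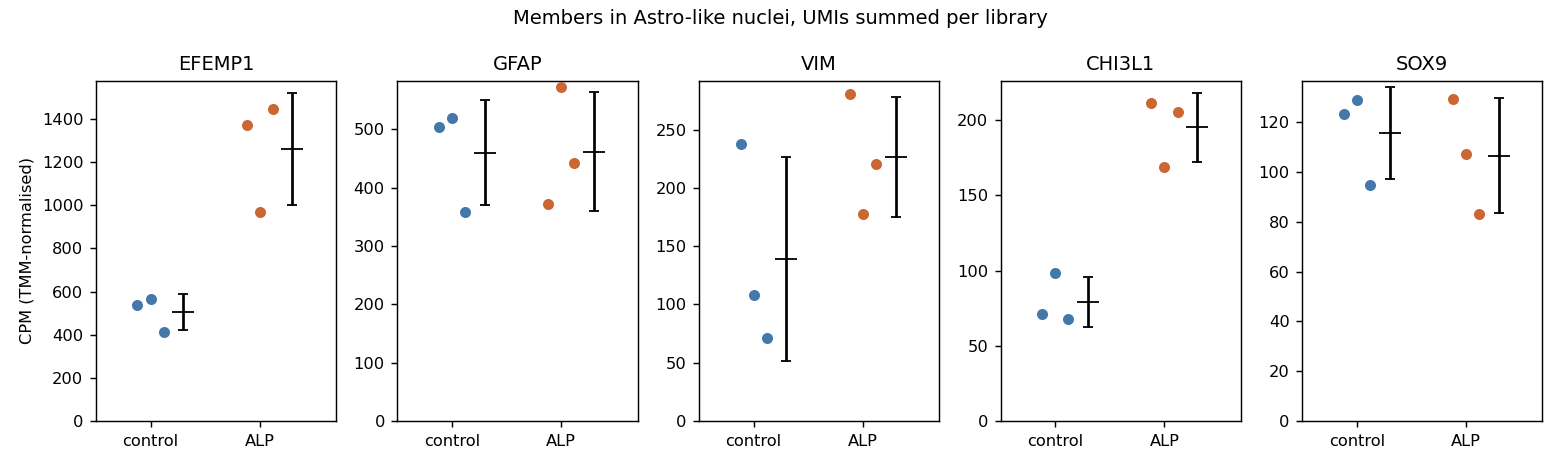
CPM (TMM-normalised) of 5 genes in Astro-like nuclei, 1 point per library (blue control, orange ALP), with the mean and SD of each group beside the points. The ALP libraries lie above all control libraries for EFEMP1 (967 to 1448 against 413 to 566 CPM) and CHI3L1 (169 to 211.5 against 67.6 to 98.5 CPM), and the groups overlap for GFAP, VIM and SOX9.

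The calls depended on single libraries. Without ALP 1, ALP 3 or control 3 neither gene was called (adjusted p = 0.197, 0.239 and 0.0942), and CHI3L1 was also not called without control 1 (0.0504), although the log2 fold changes stayed between 1.195 and 1.51 for EFEMP1 and between 1.21 and 1.502 for CHI3L1. When the presence of Y-linked transcripts was added to the fit both stayed called (1.29 and 1.31, adjusted p = 0.0325 each).

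GFAP had 503.5, 520.0 and 358 CPM in control against 372, 572 and 442 CPM in ALP TSs, which overlapped. Its log2 fold change was 0.02 (standard error 0.20, edgeR adjusted p = 0.981), and the sign turned with the library left out, as -0.14 without control 3 and -0.15 without ALP 2. VIM had 238, 108 and 71.4 CPM in the 3 control libraries against 280.5, 178 and 221 CPM in ALP TSs, with control 1 inside the range of the ALP libraries. At 0.68 (standard error 0.36), its log2 fold change did not pass the test (edgeR adjusted p = 0.361). SOX9 had 123, 129 and 94.8 CPM in control against 129, 107 and 83.2 CPM in ALP TSs, which overlapped as well (-0.13, standard error 0.21, edgeR adjusted p = 0.808).

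CD44, SERPINA3 and STAT3 had too few UMIs in Astro-like nuclei to be tested. CD44 had 8, 10 and 9 UMIs in control TSs, against 4, 23 and 5 in ALP TSs. SERPINA3 had 20, 2 and 10 UMIs against 0, 5 and 5, so that control 1 and control 3 held 30 of the 42 UMIs. STAT3 had 2, 1 and 0 UMIs against 1, 2 and 4. The libraries of the groups overlapped for all 3 genes.

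Markers of other cell types were summed in the same nuclei. The 8 endothelial markers in the files, of which all had a UMI, summed to 61.6 to 80.7 CPM in control and 29.2 to 42.1 CPM in ALP Astro-like nuclei, against at least 4790 CPM in Endo-like nuclei. The 10 ependymal markers summed to 349 to 418 CPM in control and 423 to 673 CPM in ALP TSs, against at least 7101 CPM in Ependymal-like nuclei, a class with high CHI3L1 and EFEMP1. This difference lay in SPAG17 (289.5 to 370 against 379 to 625 CPM). The other 9 ependymal markers summed to 48.2 to 59.5 and 43.6 to 54.3 CPM, which overlapped. Among them FOXJ1, the defining factor of multiciliated cells, had at most 1.04 CPM. Its level in Ependymal-like nuclei was not set beside this, so the value alone does not measure ependymal RNA. The 11 microglial markers, all with a UMI, summed to 39.1 to 60.3 CPM in control libraries against 50.1 to 61.4 CPM in ALP libraries. Lists of other classes gave larger sums than the endothelial and microglial ones. InN-like markers summed to 1543 to 1654 CPM in control and 783 to 1585 CPM in ALP libraries. For OPC-like markers the sums were 591 to 1036 and 701.5 to 823 CPM. Oligo-like markers had 356 to 766 and 351.5 to 485 CPM, and Gran-like markers 433 to 642 and 427 to 532 CPM. In all of these the groups overlapped. The part of any of these markers in the results was not tested.

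Detection gave the same order. After each nucleus was thinned to 1000 UMIs, since control nuclei were deeper (median 1998 to 2260 against 1552 to 1745.5 UMIs in Astro-like nuclei), EFEMP1 had a UMI in 38.5%, 39.3% and 31.3% of control and 63.4%, 55.8% and 66.6% of ALP Astro-like nuclei. For CHI3L1 the shares were 6.69%, 8.78% and 6.26% in control and 16.2%, 13.7% and 15.1% in ALP TSs. Both separated the groups, with an exact permutation p = 0.1 (two-sided, n = 3 each), the smallest that 3 against 3 libraries can give. In Gran-like nuclei, deeper at a median of 2466 to 4056 UMIs, the thinned share was 9.16% for EFEMP1, which these neurons carried above the level of other neurons, and 0.393% for CHI3L1. Thinning left out 8 to 34 nuclei per library. Without it the shares were 57.9% ± 5.29 and 76.1% ± 3.46 for EFEMP1 and 14.4% ± 3.57 and 23.1% ± 0.855 for CHI3L1 (SD, n = 3 each).

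The thinned share of GFAP was 26.4% ± 3.93 in control and 24.9% ± 4.67 in ALP TSs, that of VIM 10.3% ± 6.86 and 15.9% ± 3.76, and that of SOX9 10.8% ± 1.86 and 8.75% ± 1.86 (SD, n = 3 each), all overlapping. For SOX9 the unthinned shares did separate, at 21.98% ± 3.99 in control against 14.3% ± 2.52 in ALP TSs (SD, n = 3 each), beside the greater depth of the control nuclei.

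**Figure D3:**
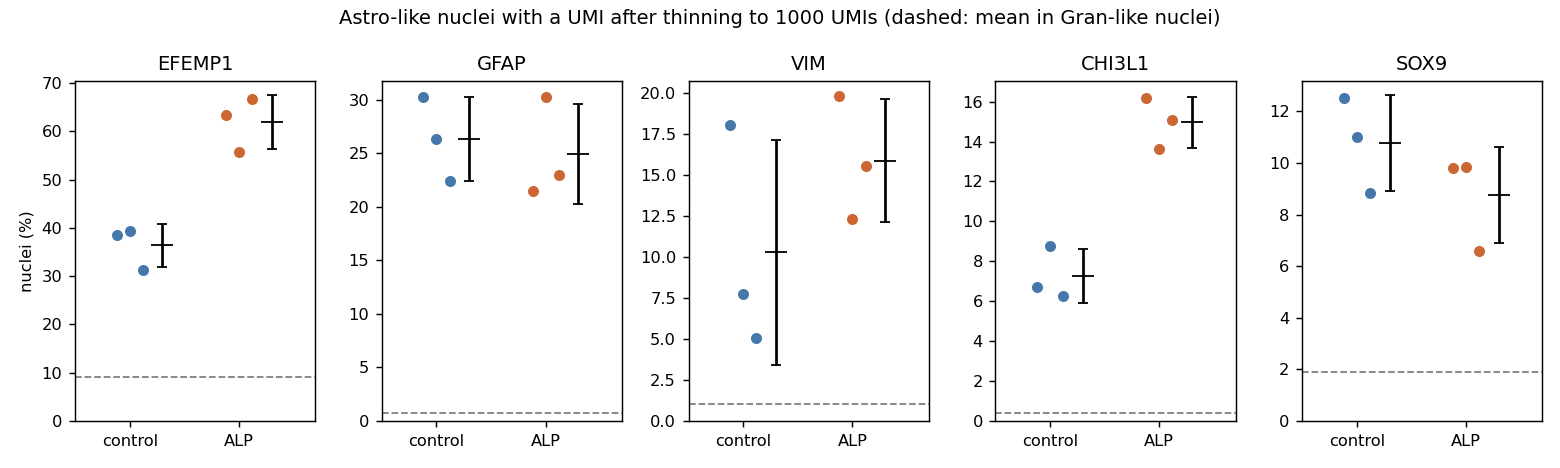
Percent of Astro-like nuclei with at least 1 UMI of 5 genes after thinning to 1000 UMIs per nucleus, 1 point per library (blue control, orange ALP), with mean and SD of each group; the dashed line is the mean in Gran-like nuclei. EFEMP1 rises from 36.4% to 62.0% and CHI3L1 from 7.24% to 14.97% between the group means, both above the Gran-like level.

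The Astro-like nuclei formed 2 clusters, a large one of 2965 nuclei and a small one of 261 nuclei. Although the 9 genes had no part in the clustering, GFAP and CHI3L1 led the small cluster, beside AQP4, the water channel of astrocyte endfeet, and the metallothionein MT2. GFAP had 1651 CPM there against 358 CPM in the large cluster, VIM 726 against 136, CHI3L1 391 against 105, and EFEMP1 1029 against 815 CPM, each higher in 6 of 6 libraries. SERPINA3 had 30 of its 42 Astro-like UMIs in the small cluster. These are descriptions, since the clusters were built on the same nuclei.

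The small cluster made up 8.64%, 6.07% and 2.20% of the control and 10.0%, 9.79% and 13.1% of the ALP Astro-like nuclei, and since clustering at a resolution of 1 gave a single Astro-like cluster, of 3195 nuclei, these shares were not tested. Within it GFAP had 1970, 1774 and 2786 CPM in control and 811, 1555 and 1012 CPM in ALP TSs, from 16 to 75 nuclei a library. Every ALP library was below every control library there (exact permutation p = 0.1, two-sided, n = 3 each), whereas within the large cluster the groups overlapped (376 ± 58.0 and 340 ± 87.3 CPM, SD, n = 3 each). EFEMP1 went the other way in the small cluster, with 901, 618 and 987 CPM in control below 1261, 999.5 and 1405 CPM in ALP libraries (exact permutation p = 0.1, two-sided, n = 3 each). CHI3L1 overlapped there, with 290 ± 143 and 492 ± 94.5 CPM (exact permutation p = 0.2, two-sided, n = 3 each). By the same exact permutation test VIM and SERPINA3 had p = 0.2 each and SOX9 p = 0.8. These comparisons within the small cluster were not planned. With the large cluster alone EFEMP1 was still called (log2 fold change 1.35, edgeR adjusted p = 0.0325), while CHI3L1 was not (1.18, adjusted p = 0.0615).

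To see which members went together in single nuclei, Astro-like nuclei with at least 1 GFAP UMI were compared with those without any. Both Astro-like clusters were pooled, and 66.3% of the small cluster against 35.3% of the large one had a GFAP UMI. The comparison is thus not independent of the differences between the 2 clusters. Of the 6 other members with at least 20 UMIs, CHI3L1, VIM and EFEMP1 were higher in GFAP-positive nuclei in 6 of 6 libraries, for each of which the exact sign-flip permutation p = 0.031 (two-sided, not adjusted) is the smallest that 6 libraries can give. The 2 sets were close in depth, with medians of 1601 to 2350 UMIs in GFAP-positive and 1520 to 2197 UMIs in GFAP-negative nuclei, GFAP itself left out.

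CHI3L1 had 191 ± 97.8 CPM in GFAP-positive and 92.6 ± 41.6 CPM in GFAP-negative nuclei (SD over 6 libraries). Its log2 ratios were 1.49, 0.35 and 0.78 in control and 0.97, 1.14 and 1.31 in ALP libraries, with a mean of 1.01. VIM had a mean log2 ratio of 0.82, from 0.05 in ALP 1 to 2.01 in control 2. EFEMP1, present in most Astro-like nuclei, differed less, with a mean log2 ratio of 0.28 from 945 against 762 CPM. SERPINA3 had 37 UMIs in GFAP-positive and 5 in GFAP-negative nuclei, and was higher in the 5 libraries that had a UMI. ALP 1 had none, and without it the exact sign-flip permutation p was 0.0625, the smallest that 5 libraries can give.

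**Figure D4:**
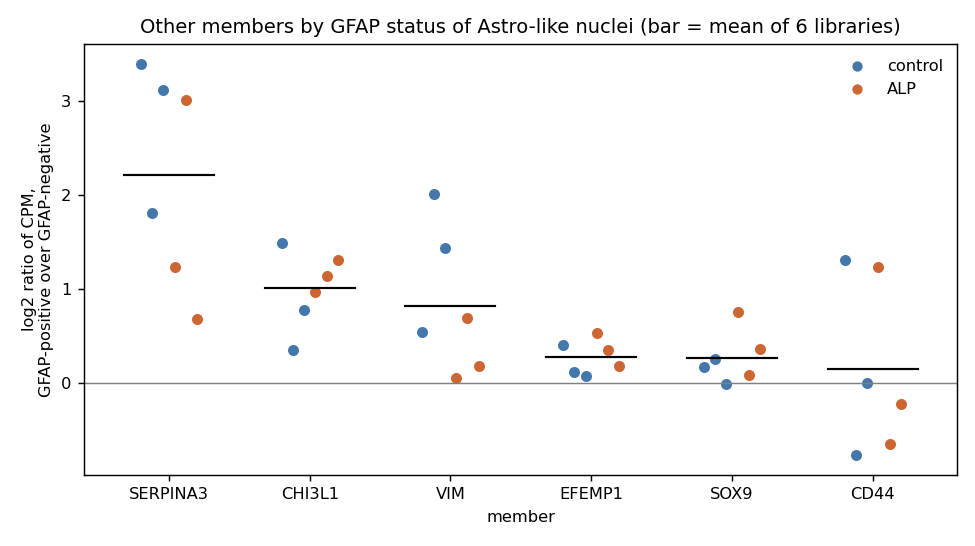
log2 ratio of CPM between GFAP-positive and GFAP-negative Astro-like nuclei for 6 other members, with 1 UMI added to each sum, 1 point per library (blue control, orange ALP) and a bar at the mean. CHI3L1 (1.01), VIM (0.82) and EFEMP1 (0.28) lie above 0 in every library, CD44 (0.15) falls on both sides, and the ALP 1 point of SERPINA3 comes from the added UMI alone.

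SOX9 had a mean log2 ratio of 0.27 and was higher in 5 of 6 libraries (exact sign-flip permutation p = 0.0625), and CD44 had 0.15 and was higher in 2 of 6 (exact sign-flip permutation p = 0.75). Without the upper limit on genes EFEMP1 no longer reached the smallest p (0.0625), and with at least 2 GFAP UMIs VIM did not (0.0625). Of 13 genes of resting astrocytes compared in the same way, 7 had a mean log2 ratio above 0 and 6 below 0, and 3 reached the smallest p. AQP4 was higher in GFAP-positive nuclei (0.80, 6 of 6 libraries), and GPC5, a glypican, and SLC1A3, the glutamate transporter GLAST, were lower (-0.45 and -0.23, 0 of 6 libraries higher). KCNJ10, a potassium channel, and GLUD1, a glutamate dehydrogenase, had 0.40 each (5 of 6 libraries, exact sign-flip permutation p = 0.0625 each).

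Outside Astro-like nuclei 0 members were called in any class, against 0.46% of features in Micro-like, 4.93% in Oligo-like, 1.63% in OPC-like and 0.863% in Gran-like nuclei and 0% in the other classes. At an unadjusted p under 0.05 there were 2 of 4 members tested in Micro-like, 1 of 5 in Oligo-like and 1 of 3 in Gran-like nuclei, where 14.2%, 21.9% and 16.2% of all features passed it. In Micro-like nuclei CHI3L1 had 9.23, 24.2 and 16.6 CPM in control and 50.6, 49.9 and 47.1 CPM in ALP libraries, from 15 and 53 UMIs. Every ALP library was above every control library, and the log2 fold change of 1.89 (standard error 0.43) had an edgeR adjusted p = 0.0628. CHI3L1 passed the filter on low counts in this class through the ALP libraries only. The filter thus favoured a difference in this direction, and the separation is not independent of it. EFEMP1 did not overlap there either, with 36.3 to 58.2 CPM in control and 58.4 to 97.7 CPM in ALP TSs (log2 fold change 0.84, edgeR adjusted p = 0.265). In CPM over all UMIs of the class, without TMM factors, its groups overlapped, with 51.1 in control 3 above 50.3 in ALP 1. Means of EFEMP1 and GFAP were 55.6 and 32.4 CPM in this class, against 828 and 445 CPM in Astro-like nuclei. The source of these UMIs in Micro-like nuclei was not tested. CHI3L1 was called in Micro-like nuclei without control 2 (2.04, adjusted p = 0.0268). With any other library left out it was not called (edgeR adjusted p from 0.156 to 0.322). With every library in, 30 features (0.46%) were called in this class. That count also moved with the library left out, over the range given in the closing section, so the call without control 2 is not particular to CHI3L1.

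In Gran-like nuclei EFEMP1 had 81.4, 68.1 and 92.0 CPM in control and 96.0, 143 and 129 CPM in ALP TSs. These did not overlap, and the log2 fold change of 0.58 (standard error 0.21) had an edgeR adjusted p = 0.189. In CPM over all UMIs of the class, without TMM factors, the groups overlapped, with 89.2 in control 3 above 87.8 in ALP 1. In Oligo-like, ExN-like and InN-like nuclei EFEMP1 had log2 fold changes of -0.21, -0.45 and 0.40, of which the first turned to 0.03 without ALP 1 and the second to 0.46 without control 1. CHI3L1 was tested in 2 more classes, with 0.57 in Ependymal-like (adjusted p = 0.814) and 0.44 in Oligo-like nuclei (adjusted p = 0.554). GFAP had negative log2 fold changes in Micro-like (-0.56), Oligo-like (-0.90), OPC-like (-0.45) and ExN-like nuclei (-0.87), with adjusted p between 0.188 and 0.673, in classes where its mean level was at most 32.4 CPM. All 4 members tested in ExN-like nuclei were lower in ALP TSs, with 0 at an unadjusted p under 0.05 (edgeR), against 17.0% of all features. Of the genes of resting astrocytes 6 of 8 tested there were lower too, beside a median log2 fold change of 0.0009 over all features. The groups did not overlap for 2 of the members, GFAP and SOX9, and the share of all features without overlap was not counted. GFAP had 4.87, 4.96 and 5.165 CPM in control libraries there and 0.370, 3.98 and 3.79 CPM in ALP libraries. These values rest on 10, 3 and 4 UMIs in control against 1, 11 and 9 UMIs in ALP libraries. GFAP passed the filter on low counts in this class through the control libraries only, which favours a lower ALP value. For SOX9 the values were 5.84, 8.27 and 10.33 against 5.54, 5.07 and 3.79 CPM. The SOX9 difference was -0.67 on the log2 scale (adjusted p = 0.451, edgeR). In Oligo-like nuclei CHI3L1, higher in ALP TSs, also did not overlap, with TMM factors only.

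**Figure D5:**
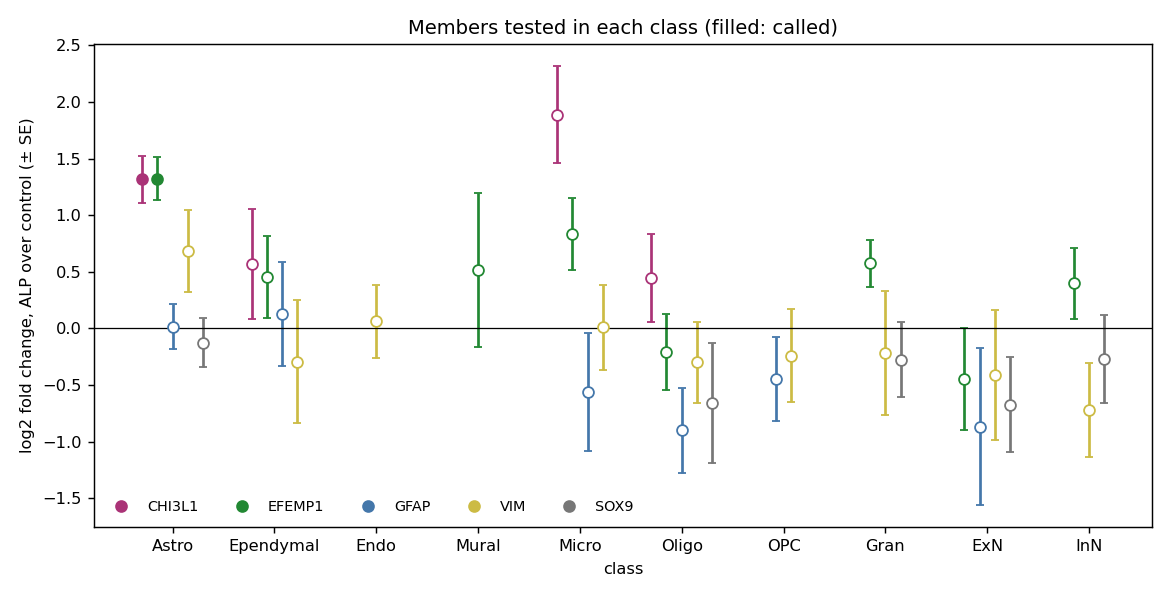
log2 fold change of ALP over control with its standard error for each of 5 members in the classes where it was tested, with filled points for called values. CHI3L1 and EFEMP1 in Astro-like nuclei (1.32 each) are the filled points, and CHI3L1 in Micro-like nuclei has the highest value (1.89). CHI3L1 in Micro-like nuclei passed the filter on low counts through the ALP libraries only, and GFAP in ExN-like nuclei through the control libraries only.

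In the sum of all kept nuclei 0 members were called, as were 0% of the 22749 features tested (edgeR), of which 5323 had an unadjusted p under 0.05. In such a sum fewer astrocytes and less RNA per astrocyte cannot be told apart, and Astro-like nuclei made up 8.07%, 19.4% and 12.7% of the control and 7.64%, 14.7% and 11.7% of the ALP nuclei. CHI3L1 and EFEMP1 had log2 fold changes of 0.64 each (adjusted p = 0.280 and 0.160), GFAP -0.56 (0.428), VIM -0.29 (0.549) and CD44 -0.28 (0.806), which turned to 0.26 without control 2. SOX9 had 22.3, 38.4 and 24.0 CPM in control and 14.6, 21.9 and 16.5 CPM in ALP TSs, without overlap (log2 fold change -0.66, edgeR adjusted p = 0.173). Without control 2, the library with the largest share of Astro-like nuclei, CHI3L1 (1.09, adjusted p = 0.0431) and EFEMP1 (0.89, adjusted p = 0.0490) were called. That fit called 2245 features in all, against 0 with every library in. SERPINA3, with 31, 3 and 14 UMIs in control against 0, 5 and 5 in ALP TSs, and STAT3, with 8, 1 and 5 against 8, 11 and 11, were too sparse to be tested.

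The genes around the members were followed in Astro-like nuclei through 4 lists, beside 17.1% of all features tested there with an unadjusted p under 0.05. Of 35 other reactive astrocyte genes 11 were tested and 0 called, with 2 at an unadjusted p under 0.05 and a median log2 fold change of 0.33 beside -0.01 over all features. The largest differences were in S100A6, a calcium-binding protein that also led the small cluster (71.0 ± 20.1 CPM in control, 205 ± 86.0 in ALP TSs, log2 fold change 1.51, edgeR adjusted p = 0.0629), and TNC, a matrix glycoprotein (6.59 ± 2.02 and 18.9 ± 8.12 CPM, 1.43, adjusted p = 0.161; SD, n = 3 each). Neither overlapped between the groups. FKBP5, a co-chaperone of the glucocorticoid receptor, had -0.83 (adjusted p = 0.328). In Oligo-like nuclei FKBP5 was called lower (126 ± 76.7 and 40.05 ± 5.01 CPM, SD, n = 3 each, log2 fold change -1.77, edgeR adjusted p = 0.0195), a call lost without control 3, ALP 1 or ALP 3 (adjusted p = 0.0867, 0.105 and 0.121). FKBP5 was 1 called of 7 genes of this list tested in Oligo-like nuclei, where 4.93% of all features were called.

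Of 19 genes of the JAK-STAT3 pathway and glial transcription 14 were tested and 0 called, also 0 at an unadjusted p under 0.05, with a median log2 fold change of -0.08. SOX2, a factor of glia and progenitors, had 0.50, the kinase JAK2 -0.29 and the glial factor NFIA 0.27 (edgeR adjusted p from 0.292 to 0.649). The receptor subunits IL6ST and LIFR, through which the pathway is entered, had -0.08 and -0.10.

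Of 19 filament and CD44 partners 6 were tested and 0 called, with 3 at an unadjusted p under 0.05 and a median of 0.41. SYNM, a filament partner of GFAP and VIM, had 1.11, HAPLN1, a link protein of hyaluronan, 1.00, and MSN, which ties CD44 to actin, 0.63 (edgeR adjusted p from 0.161 to 0.292). SPP1, a ligand of CD44, was called higher in Oligo-like nuclei (26.7 ± 16.0 and 70.9 ± 17.8 CPM, SD, n = 3 each, log2 fold change 1.67, edgeR adjusted p = 0.0497), a call lost without control 1, control 3, ALP 1 or ALP 3 (adjusted p = 0.0726 to 0.208), with upper-quartile normalization (0.0528) and without the upper limit on genes (0.0539). SPP1 was 1 called of 6 genes of this list tested in Oligo-like nuclei, beside 4.93% of all features.

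Of 14 homeostatic astrocyte genes 13 were tested and 0 called, with 2 at an unadjusted p under 0.05 and a median of 0.16. ALDH1L1, a folate enzyme used as a pan-astrocyte marker, had 59.7, 105 and 150 CPM in control and 44.5, 46.4 and 45.2 CPM in ALP TSs (log2 fold change -1.21, edgeR adjusted p = 0.0803). SLC1A3 had 2770 ± 261 and 3896 ± 232 CPM (SD, n = 3 each), with a log2 difference of 0.49 (edgeR adjusted p = 0.0940), and GPC5 had -0.70 (adjusted p = 0.578). The groups did not overlap for ALDH1L1 and SLC1A3 and overlapped for GPC5.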

How the data were processed

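The authors deposited raw counts of UMIs per feature and barcode, written by Cell Ranger. The submitters' processing notes and the methods name version 3.1.0, and the matrix headers 6.1.2. The annotation was that of TreeshrewDB. The build and the use of strand are not given in the sources used here, so genes with antisense partners are uncertain. Of the deposited counts, nuclei with at least 200 and under 2500 genes and under 5% mitochondrial UMIs were kept. Mitochondrial UMIs were counted only on features named after MT-ND1. Without the upper limit on genes 37582 of 37603 barcodes passed, so the other filters removed few. Scanpy 1.11.5 scaled them to 10000 UMIs and clustered them with leidenalg 0.10.2 at resolution 2 on 2000 variable genes without the members, 30 components and 20 neighbours, with no correction between libraries. A name needed 3 markers. Doublets marked by Scrublet scores stayed in. Clusters under 0.5 times the depth of their libraries, with at least 15% marked doublets or led by genes of another kind (mitochondrial, haemoglobin, another class) stayed unnamed. Together 3057 nuclei were in clusters left unnamed for low depth or for mitochondrial and haemoglobin genes at their head. The study's NPC and OLFM1_ExN were not rebuilt, and Pyra is within ExN. Libraries shared at most 0.465% of barcodes and differed beyond sampling noise.

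UMIs were summed per library and class (at least 10 nuclei) and went into edgeR 4.0.16, run in R 4.3.3 (quasi-likelihood test, TMM, minimum count 10, Benjamini-Hochberg over all features tested). CPM beside a fold change carry TMM factors and are taken over the UMIs of the tested features only. Other CPM carry no such factors and are taken over all UMIs of the class. The ALP mean of EFEMP1 in Astro-like nuclei was 1262 CPM in the first way and 1147 CPM in the second. Standard errors are the log2 fold change over the root of F. In simulated Astro-like counts of 10143 genes, 34% of changes of 2-fold and 92% of 4-fold were recovered, with 9 false calls. The simulation used a single dispersion for all genes and no library effects beyond depth, so these rates need not hold for the real counts. Shares and ratios were compared by exact permutation, enumerating all 20 arrangements of the libraries or all 64 sign changes, and not adjusted over the members, although the plan was to. Levels within the small Astro-like cluster were compared over the 20 arrangements too, which was not in the plan. Members needed 20 UMIs for the comparison by GFAP, a minimum set after seeing the counts.

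The text names all members, list genes called in a class, the 3 tested genes per list with the largest difference in Astro-like nuclei and the 3 genes most like a member. IL6ST, LIFR and the 5 genes of resting astrocytes beside the comparison by GFAP were chosen after their values were seen. The members and lists were chosen with earlier results of these data known. The alternatives were DESeq2 1.42.0, upper-quartile normalization, no filter, a replicate block, each library left out, no upper limit on genes, doublets removed, resolution 1, thinning to 500 UMIs or none, and 2 GFAP UMIs. A term for Y-linked transcripts, the larger Astro-like cluster alone, proportional added UMIs and leaving out libraries without a UMI were added after seeing the data. The methods give 3 TSs per group, and the labels name no animal for a library. Intervals and floors cover counting error only.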

Additional observations from a re-analysis of the deposited data

How the results depend on the processing

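In Astro-like nuclei 2 members were called, and also with DESeq2, upper-quartile normalization, no filter, no upper limit on genes, doublets removed, resolution 1 or a term for Y-linked transcripts. Of all features 21 (0.207%) were called in the main fit, and far more with DESeq2 or no filter (given below). The count of members was 0 with the replicate number as a block and 1 in the larger cluster alone, and ranged from 0 to 2 with 1 library left out. The labels do not say whether libraries of equal number belong together. Correlations of deviations between such libraries ran from -0.0491 to 0.0558 in Astro-like nuclei, and were not compared with those of other pairs. In that blocked fit CHI3L1 and EFEMP1 kept 1.32 and 1.31 (adjusted p = 0.0809 each). The cause of lost calls was not tested. In Micro-like nuclei CHI3L1 was the only member called without the filter (count 1), a setting that called more features in all (given below). The count of members there was 0 to 1 with 1 library left out. In the sum of all kept nuclei the count was 0 to 2 with 1 library left out, 2 without control 2. In the comparison by GFAP 4 members reached the smallest p with 1 UMI added to each sum, SERPINA3 among them, 3 without the libraries that had no UMI (SERPINA3 then had an exact permutation p = 0.0625), and 2 without the upper limit on genes.

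Signs turned for differences that were not called. With 1 library left out, in Astro-like nuclei GFAP ranged from -0.15 to 0.17 and SOX9 from -0.26 to 0.059. CD44 in the sum of all nuclei ranged from -0.95 to 0.26. VIM ranged from -0.09 to 0.15 in Endo-like, -0.81 to 0.35 in Ependymal-like, -0.75 to 0.15 in Gran-like, -0.21 to 0.28 in Micro-like, -0.66 to 0.23 in OPC-like and -0.61 to 0.16 in Oligo-like nuclei. EFEMP1 ranged from -0.73 to 0.46 in ExN-like, -0.042 to 1.37 in Mural-like and -0.33 to 0.029 in Oligo-like nuclei, GFAP from -0.35 to 0.82 in Ependymal-like and SOX9 from -0.55 to 0.15 in InN-like nuclei. GFAP in the larger Astro-like cluster had -0.0085, and CD44 in the sum 0.013 with the Y-linked term. Without a filter GFAP in Ependymal-like nuclei had -0.031 and VIM in Endo-like nuclei -0.089. SOX9 in InN-like nuclei had 0.019 without the upper limit, VIM in Gran-like nuclei 0.25 at resolution 1, VIM in Micro-like nuclei -0.094 with the block and -0.11 without doublets, and CD44 by GFAP status -0.025 with proportional added UMIs.

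All features called in Astro-like nuclei were 21, but 216 with DESeq2, 731 without a filter, 6 with the block, 81 with the Y-linked term, 39 in the larger cluster, 13 without doublets and 2 to 231 with 1 library left out. In Micro-like nuclei they were 30, but 229 without a filter, 0 with the block, 6 with the Y-linked term, 5 without doublets and 0 to 280 with 1 library left out. In the sum of all nuclei they were 0, but 1740 with DESeq2, 1 without the upper limit and 0 to 2245 with 1 library left out.

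Micro-like nuclei could not be named without the upper limit on genes, and Mural-like nuclei with doublets removed had under 10 nuclei in a library, so these were not run. CD44, SERPINA3 and STAT3 had too few UMIs to be tested in Astro-like nuclei.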
